A study of Mus musculus with 36 samples.

Results

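The 10 genes described here encode ligands, an antagonist, receptors, an adaptor and inflammasome components of the interleukin-1, tumor necrosis factor and Toll-like receptor systems: Il1a, Il1b, Il1rn, Tnf, Il18, Nlrp3, Casp1, Tlr2, Tlr4 and Myd88. They were taken by gene symbol from a gene count matrix of 55487 genes, in which all 10 were listed for each of the 36 libraries. Not all were detected in every library: Tnf had no count in 10 and Nlrp3 in 8 of the 12 retina libraries. The libraries are bulk RNA-seq of C57BL/6 mice of 2 to 4 months, from 3 tissues of each mouse: the retina, the unmyelinated optic nerve head (UON) and the myelinated optic nerve (MON). The segment between UON and MON, which holds the myelin transition zone, was discarded. Mice were bilaterally naïve, or received a unilateral optic nerve crush of 3 s with self-closing forceps (Crush, collected at 3 days, 3D, or 2 weeks, 2W), or a unilateral injection of microbeads into the anterior chamber, which raises eye pressure (Glaucoma, collected at 3D, 2W or 6 weeks, 6W). Each group of a tissue, treatment and time has 2 libraries, 1 from females and 1 from males, and each library holds the pooled RNA of 2 mice. No group carried a transgene or a gene deletion, and none had a sham operation. Each library is a tissue segment with all of its cells, resident and infiltrating.

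IL-1α and IL-1β bind the same receptor, and the IL-1 receptor antagonist encoded by Il1rn occupies that receptor without signaling. Toll-like receptors 2 and 4 recognize microbial lipoproteins and lipopolysaccharide as well as molecules of damaged tissue, and they share with the IL-1 receptor the adaptor MyD88, which leads to NF-κB. NLRP3 assembles with its adaptor and caspase-1 into the inflammasome, and caspase-1 cleaves the precursors of IL-1β and IL-18. In the retina and optic nerve, IL-1α and TNF are known as products of activated microglia that act on astrocytes.

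Library totals were 16.2 to 58.5 M counts in the UON, 16.3 to 78.1 M in the MON and 19.9 to 56.0 M in the retina. The log-scale correlation between the 2 pools of a group was 0.863 to 0.970, and the lowest value was that of UON Crush 2W, whose male pool also had the lowest summed level of 8 myelin genes among the 12 UON libraries (3215 CPM, counts scaled to library size, against 24517 CPM in the female pool). Photoreceptor genes summed to 64524 and 65103 CPM in naïve retina and to at most 157 CPM in naïve nerve. Genes of the surface epithelium (keratins and a desmoglein) summed to 1991 CPM in the male MON Glaucoma 2W pool and to 2447 CPM in the female MON Glaucoma 6W pool, and to at most 8.22 CPM in the other MON libraries. Sex-linked genes matched the label of sex in 36 of 36 libraries. In bulk tissue, more cells of a type and more RNA per cell cannot be told apart.

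In the naïve nerve, Il18 and Myd88 were the most abundant of the 10 transcripts, Tlr2, Tlr4 and Casp1 were intermediate, and Il1a, Il1b, Nlrp3, Tnf and Il1rn were low. Levels of different genes are compared here in FPKM, the authors' fragments per kilobase of transcript scaled to library size, which corrects for length. Il18, the precursor of a caspase-1 substrate, had 19.2 ± 1.38 FPKM in the UON, 35.4 ± 3.27 in the MON and 6.76 ± 1.78 in the retina (mean ± SD, n = 2 pools, as for all FPKM means here). Myd88, the shared adaptor, had 14.5 ± 5.17 FPKM in the UON, 8.56 ± 1.34 in the MON and 4.91 ± 0.514 in the retina. Between the first 2 ranks the pools did not overlap in any of the 3 tissues.

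**Figure D1:**
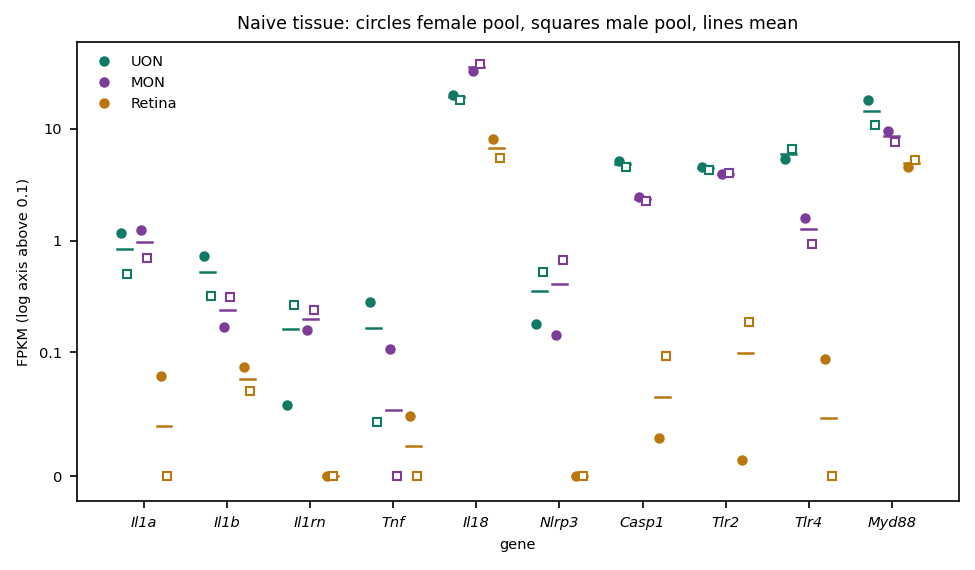
Deposited FPKM of the 10 genes in the naïve UON, MON and retina on a scale that is linear near 0 and logarithmic above; points are the 2 pools of each tissue and the mark between them is their mean. Il18 and Myd88 rank first and second in all 3 tissues, and Il1rn and Nlrp3 are listed at 0 in both retina pools.

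The receptors ranked differently in the 2 nerve regions. Tlr4, the lipopolysaccharide receptor, had rank 3 of the 10 in the UON with 5.98 ± 0.873 FPKM and rank 5 in the MON with 1.26 ± 0.470, whereas Tlr2 had rank 5 in the UON with 4.42 ± 0.236 FPKM and rank 3 in the MON with 3.97 ± 0.0918. Casp1, the inflammasome protease, had rank 4 in both, with 4.85 ± 0.453 FPKM in the UON and 2.36 ± 0.144 in the MON. In the UON, the pools of Casp1 overlapped neither with those of Myd88 nor with those of Il1a, but did overlap with those of Tlr2. Il1a had 0.837 ± 0.475 FPKM in the UON and 0.977 ± 0.390 in the MON. Il1b, Nlrp3, Tnf and Il1rn lay between 0.0537 and 0.520 FPKM in both nerve regions, and the pools of neighbors in this order overlapped, except that Tnf was below Il1rn in the MON.

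Most of the genes were higher in both naïve nerve regions than in the naïve retina. Of the 9 genes that passed the filter on low counts (all but Tnf), 7 were called higher in the UON and 7 in the MON by edgeR's quasi-likelihood test with sex as a covariate, where a call is a Benjamini-Hochberg adjusted p under 0.05 over all genes tested and a log2 fold change beyond 1. The same call was made higher for 18.2% of all genes tested in the UON and for 16.7% in the MON. The 7 were Il1a, Il18, Nlrp3, Casp1, Tlr2, Tlr4 and Myd88 in both comparisons. DESeq2, the tool of the study's methods, called 8 higher in each, Il1rn being added, where it called 21.6% and 18.8% of all genes in either direction. The 10 microglial marker genes moved the same way, with sums of 1018 and 858 CPM in the naïve UON, 1368 and 1170 in the naïve MON and 59.6 and 49.1 in the naïve retina; their part in the result was not tested.

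Values for the same gene across libraries are given as CPM, normalized with TMM factors over the 36 libraries. Tlr2 had 16.9 and 16.7 CPM in the naïve UON (female and male pool, in this order throughout), 16.5 and 14.7 in the naïve MON, and 0.0599 and 0.553 in the naïve retina. The log2 difference of Tlr2 from the retina was 5.99 in the UON (edgeR, adjusted p = 0.00113) and 5.91 in the MON (adjusted p = 0.00136). Tlr4 had 25.8 and 28.7 CPM in the UON, 9.13 and 3.53 in the MON, and 0.320 and 0 in the retina. Every nerve pool of these receptor genes lay above both retina pools, although the size of a fold against so few retinal counts depends on the prior count of the fit.

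Il18 and Myd88 differed less, because their retinal levels were not near 0. Il18 had 20.8 and 20.3 CPM in the UON, 37.7 and 36.5 in the MON, and 6.47 and 4.70 in the retina. Its log2 difference from the retina was 1.93 in the UON (edgeR, adjusted p = 0.00157) and 2.81 in the MON (adjusted p = 0.000354). Myd88 differed from the retina by 1.89 on the log2 scale in the UON (edgeR, adjusted p = 0.00284) and by 1.22 in the MON (adjusted p = 0.0200). Nlrp3 had no count in either retina pool, for which a floor of 12 counts over both pools (3 read pairs, 0.128 CPM) was set. Its mean was 5.25 times the floor in the UON (0.877 and 0.471 CPM) and 16 times in the MON (0.811 and 3.30 CPM). The floor and all count intervals here cover counting error alone, and these folds leave out the spread between the nerve pools. Il1rn, also at 0 in both retina pools, had a mean of 3.98 times the same floor in the UON (0.175 and 0.848 CPM) and 4.49 times in the MON (0.446 and 0.707 CPM). It was not called by edgeR in either (adjusted p = 0.0785 and 0.0729). Against the retina, 3 MON calls were lost when a pool was left out. These were Il1a without the naïve MON female pool, Nlrp3 without the naïve MON male pool and Myd88 without the naïve retina female pool. Such a fit has 1 pool in a group and fewer than the 2 residual degrees of freedom of the full fit. A lost call therefore does not show that a difference rests on the pool left out.

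Between the naïve UON and MON, none of the 9 genes was called by edgeR, with 2 at an unadjusted p under 0.05, and none was called by DESeq2. The 2 tools called 9.63% and 8.9% of all genes there. The 2 genes at an unadjusted p under 0.05 were Tlr4, higher in the UON by 2.34 ± 0.74 on the log2 scale (± SE; edgeR, adjusted p = 0.0999), and Il18, lower in the UON by a log2 difference of -0.88 (adjusted p = 0.0878). For each of them the UON and MON pools did not overlap.

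After crush, both MON pools of most of these genes lay above both naïve pools, and Tlr2 was the one that passed edgeR's test. Tlr2 rose from 16.5 and 14.7 CPM in the naïve MON to 47.0 and 62.5 CPM at 3D and to 128 and 92.6 CPM at 2W, so every crush pool lay far above both naïve pools. The log2 fold change was 1.91 ± 0.30 at 3D (edgeR, adjusted p = 0.0182; 3.76-fold) and 2.91 ± 0.31 at 2W (adjusted p = 0.0129; 7.53-fold), and 3.61% and 2.13% of all genes were called higher at these times. Both calls were lost without either naïve pool, in fits with 1 naïve pool and fewer residual degrees of freedom, so the loss does not show that they rest on 1 pool. The log2 fold changes were 1.56 to 2.21 at 3D and 2.62 to 3.19 at 2W over all left-out pools. Tlr2 was further apart at 2W than at 3D by 1.0 ± 0.29 on the log2 scale, which was not called (edgeR, adjusted p = 0.214).

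**Figure D2:**
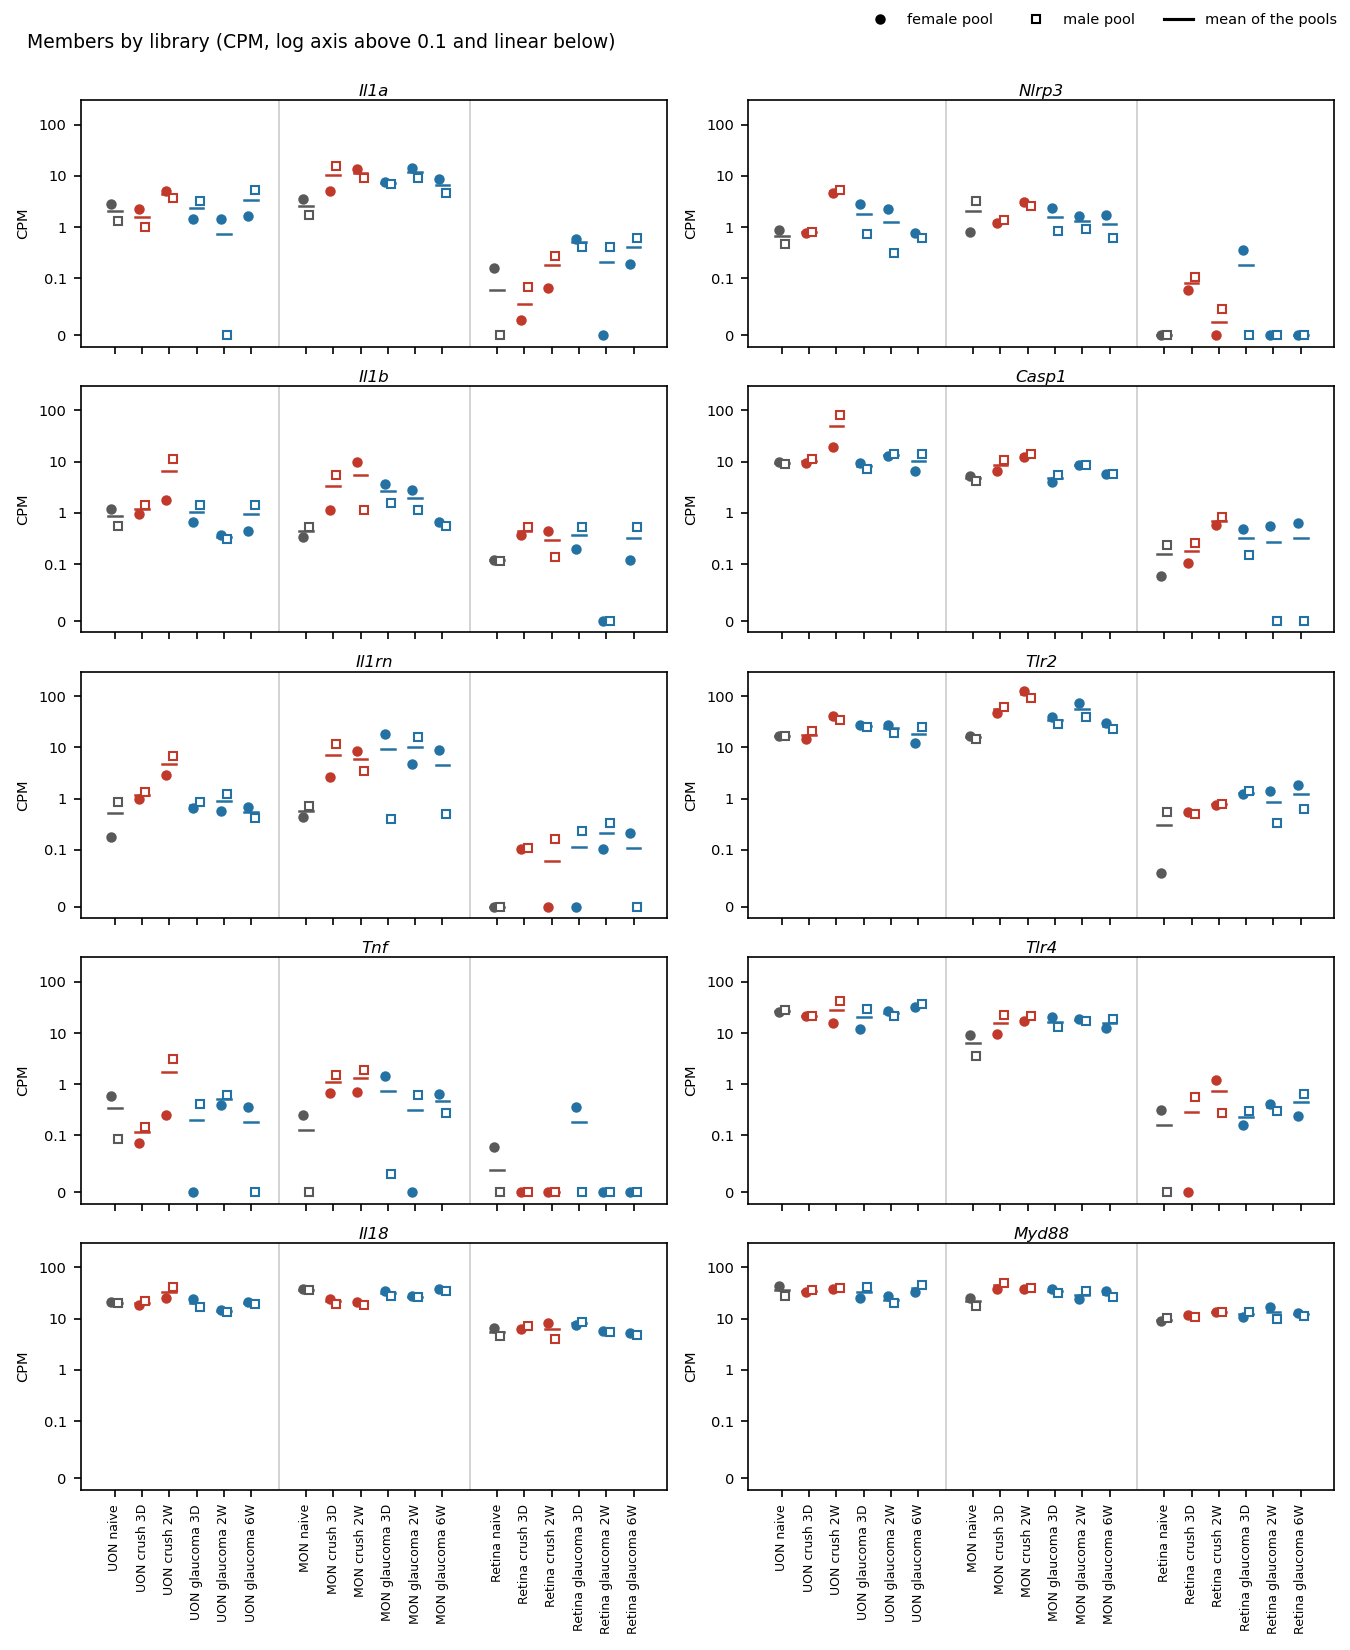
CPM of each of the 10 genes in the 36 libraries, 1 panel per gene, with tissue, treatment and time along the horizontal axis and CPM on a scale that is linear near 0 and logarithmic above; points are the female and male pools. In the MON, all 4 Crush pools of Tlr2 lie at 47.0 CPM or more against at most 16.5 CPM in the naïve pools, and most retina points of the ligand genes lie near 0.

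The Tlr2 gene (ENSMUSG00000027995) lies on the minus strand at chr3:83836272-83841767 of GRCm38. Since it was the member called by both tools after crush, its promoter window, 250 bases before and 50 after the RefSeq start (RefSeq, GRCm38.p6, chr3:83841559-83841858, minus strand), is shown with matches to the κB consensus in capitals, the recognition sequence of NF-κB.
Tlr2: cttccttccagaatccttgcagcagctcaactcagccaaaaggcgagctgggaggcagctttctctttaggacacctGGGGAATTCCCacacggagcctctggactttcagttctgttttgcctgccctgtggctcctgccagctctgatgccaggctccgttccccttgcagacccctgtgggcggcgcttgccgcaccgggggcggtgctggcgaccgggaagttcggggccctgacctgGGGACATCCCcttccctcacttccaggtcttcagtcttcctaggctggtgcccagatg
The window held 3 matches, searched on both strands, of which 2 overlap in the first capital block. The gene as counted extends to 83841767, beyond the RefSeq start, so part of the window lies within it, with the second capital block. The consensus was matched in 2779 of 32851 RefSeq windows of the same length (8.46%), and among the 9 members with a window (none for Tlr4) it was matched in those of Tlr2 and Nlrp3. A match describes letters and not binding.

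The ligand genes had higher values in the crushed MON but spread widely between the 2 pools. Il1a (chr2:129299610-129309972, minus strand) had 3.48 and 1.71 CPM in the naïve MON, 5.01 and 15.8 at 3D, and 13.9 and 9.13 at 2W. The groups did not overlap, and the log2 fold change was 2.08 ± 0.67 at 3D (edgeR, adjusted p = 0.135) and 2.24 ± 0.65 at 2W (adjusted p = 0.131). Il1b (chr2:129364570-129371139, minus strand) had 0.334 and 0.530 CPM in the naïve MON, 1.11 and 5.43 at 3D, and 9.74 and 1.12 at 2W, so the pool with the high value was male at 3D and female at 2W. Its log2 fold changes, 3.02 ± 1.24 and 3.79 ± 1.34, had adjusted p-values of 0.220 and 0.217 by edgeR. Il1rn, the antagonist gene, had 0.446 and 0.707 CPM in the naïve MON, 2.67 and 11.8 at 3D, and 8.49 and 3.50 at 2W, with a log2 fold change of 3.62 at both times (SE 0.87 and 0.88; edgeR, adjusted p = 0.0645 and 0.0816). All 4 crush pools of Il1rn lay above both naïve pools, and the higher pool was again male at 3D and female at 2W. Tnf (chr17:35199381-35202007, minus strand) stayed at or under 1.88 CPM in all 6 of these libraries, and its fitted log2 fold changes of 2.88 and 3.11 had SE of 1.59 and 1.61.

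Il18 was the one ligand gene with lower values. It had 37.7 and 36.5 CPM in the naïve MON, 24.7 and 19.3 at 3D, and 20.8 and 18.5 at 2W. Both pools were thus below both naïve pools at each time, as were those of 29.9% and 25.7% of all genes tested. The log2 differences were -0.67 ± 0.29 and -0.83 ± 0.29 and were not called (edgeR, adjusted p = 0.249 and 0.215). Summed myelin genes were lower in the same libraries, with 165311 and 120854 CPM in the naïve pools, 82969 and 73236 at 3D, and 44275 and 57562 at 2W; their part in the result was not tested.

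Of the inflammasome genes in the MON, Casp1 (chr9:5298508-5307290, plus strand) had 5.31 and 4.18 CPM in naïve pools, 6.63 and 10.7 at 3D, and 12.4 and 14.0 at 2W (log2 fold change at 2W 1.56 ± 0.41; edgeR, adjusted p = 0.104). Nlrp3 (chr11:59541568-59566956, plus strand) had 0.811 and 3.30 CPM in naïve pools, 1.23 and 1.40 at 3D, and 3.03 and 2.62 at 2W. Its naïve pools enclosed both of the later groups, so no difference can be read from it.

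Of the other receptor and adaptor genes, Tlr4 (chr4:66827584-66930284, plus strand) had 9.13 and 3.53 CPM in the naïve MON, 9.47 and 22.1 at 3D, and 17.0 and 21.3 at 2W (log2 fold change at 2W 1.67 ± 0.57; edgeR, adjusted p = 0.193). Myd88 (chr9:119335934-119341411, minus strand) had 25.7 and 18.1 CPM, then 38.4 and 50.9 at 3D, and 37.8 and 39.1 at 2W. Its log2 fold change was 1.13 ± 0.29 at 3D (edgeR, adjusted p = 0.0802) and 0.91 ± 0.29 at 2W (adjusted p = 0.168).

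In the crushed MON, then, 8 of the 10 genes had both pools above both naïve pools at 3D and 8 at 2W, beside 23.6% and 21.8% of all genes tested. The median log2 fold change of the 10 was 1.64 at 3D and 1.95 at 2W, beside -0.0049 and 0.051 for all genes. By edgeR 1 member was called at each time, where 4.26% and 2.72% of all genes were called in either direction, and 6 and 8 had an unadjusted p under 0.05. DESeq2 called 5 at 3D (Il1a, Il1b, Il1rn, Tlr2 and Myd88) and 6 at 2W (Il1a, Il1b, Il1rn, Casp1, Tlr2 and Tlr4), where it called 6.07% and 4.43% of all genes. So the number of called members depended on the tool, and the Tlr2 call was made by both.

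**Figure D3:**
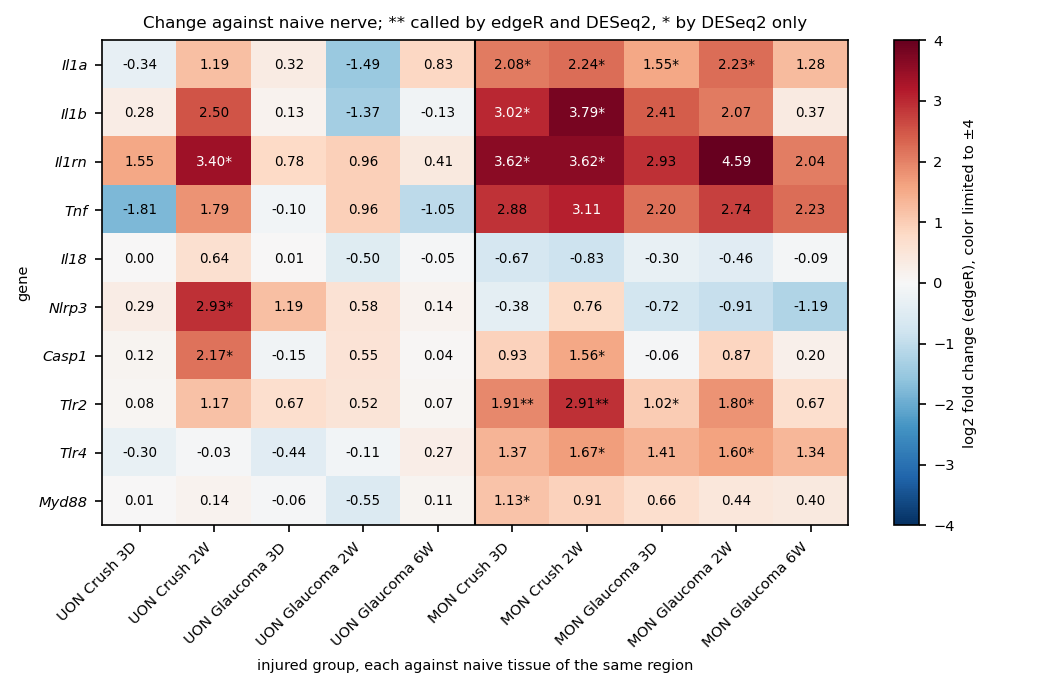
Log2 fold changes against the naïve libraries of the same tissue (edgeR) for the 10 genes, with 1 column per nerve region, treatment and time; color gives the size and direction and stars mark calls as the title defines them. Tlr2 in MON Crush 3D and 2W is called by both tools, and the remaining starred cells are called by DESeq2 only.

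Markers of 2 myeloid cell types moved in the same libraries. The summed level of 10 monocyte and macrophage genes was 140 and 173 CPM in the naïve MON, 3719 and 8186 at 3D, and 7764 and 2071 at 2W, and 6 of the 10 were called higher at 3D and 3 at 2W. The summed level of 10 microglial genes was 1368 and 1170 CPM in naïve pools, 1880 and 1835 at 3D, and 4096 and 2763 at 2W, with 0 called at 3D (2 at an unadjusted p under 0.05) and 2 at 2W. The pool with the higher monocyte and macrophage sum, male at 3D and female at 2W, was also the pool with the higher Il1a, Il1b and Il1rn. For Tlr2 it was likewise the higher pool at both times, whereas Tnf, Casp1, Tlr4 and Myd88 were higher in the male pool at both times. Tlr2 as a percentage of the microglial sum, a ratio chosen after its values were seen, was 1.21 and 1.25 in the naïve MON, 2.50 and 3.40 at 3D, and 3.12 and 3.35 at 2W. Neutrophil genes summed to 22.6 and 22.7 CPM in naïve pools and were higher at 2W, with 119 and 103 CPM. Of that list Ly6g and Camp were at 0 in all 6 libraries, so its other genes make up the sum. The neutrophil sum at 3D is not given here, so early neutrophils cannot be judged from these values. Lymphocyte genes stayed at or under 8.37 CPM. The part of these cells in the result was not tested.

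**Figure D4:**
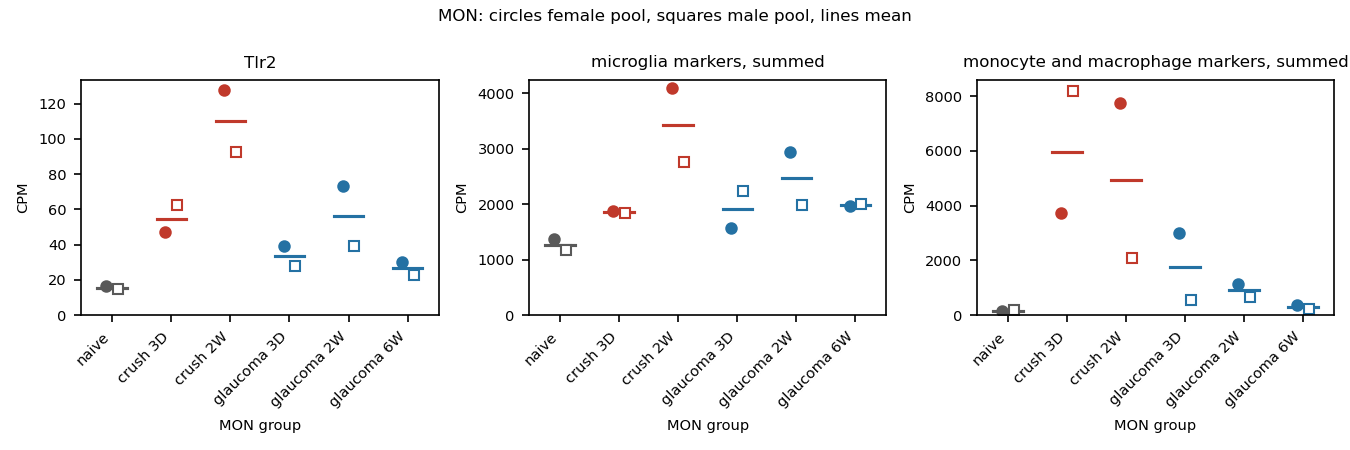
CPM of Tlr2 in the 12 MON libraries with the summed CPM of 10 microglial genes and of 10 monocyte and macrophage genes, by treatment and time; points are the female and male pools. Tlr2 and both sums are above the naïve pools in all 4 Crush pools, and the monocyte and macrophage sum reaches 8186 CPM in the male pool at 3D.

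In the MON of the glaucoma model, none of the 10 genes was called by edgeR at 3D, 2W or 6W, with 5, 5 and 3 of the 10 at an unadjusted p under 0.05. The test also called 0% of all genes at each time. DESeq2 called 2 at 3D (Il1a and Tlr2), 3 at 2W (Il1a, Tlr2 and Tlr4) and 0 at 6W, and 1.1%, 1.27% and 0.168% of all genes. Il1a had 7.71 and 6.97 CPM at 3D, 14.4 and 9.13 at 2W, and 8.51 and 4.53 at 6W, all above the naïve 3.48 and 1.71. Its log2 fold changes were 1.55 ± 0.38, 2.23 ± 0.39 and 1.28 (edgeR, adjusted p = 0.409 and 0.278 at 3D and 2W).

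Tlr2 was at its highest in this model at 2W. It had 39.1 and 28.0 CPM at 3D, 73.5 and 39.3 at 2W, and 30.3 and 22.6 at 6W, so all 6 pools exceeded the naïve 16.5 and 14.7. The log2 fold changes were 1.02 ± 0.27 at 3D, 1.80 ± 0.28 at 2W and 0.67 ± 0.27 at 6W (edgeR, adjusted p = 0.426, 0.232 and 0.849). Tlr4 had 20.1 and 13.4 CPM at 3D, 18.9 and 17.4 at 2W, and 12.5 and 18.4 at 6W, again above the naïve 9.13 and 3.53. Both pools of 5, 6 and 7 members lay above both naïve pools at 3D, 2W and 6W, beside 18.3%, 18.4% and 20.8% of all genes. Those of Il18 lay below both naïve pools at 3D and 2W, beside 16.9% and 20.3% of all genes. The microglial sum was 1567 and 2247 CPM at 3D, 2952 and 1984 at 2W, and 1975 and 2001 at 6W, and the monocyte and macrophage sum was 2988 and 558, 1134 and 674, and 360 and 229; their part in these values was not tested.

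Crush and glaucoma were compared directly at the shared times. For Tlr2 in the MON the difference, crush minus glaucoma, was 0.81 ± 0.28 at 3D and 1.04 ± 0.28 at 2W on the log2 scale, and was not called (edgeR, adjusted p = 0.381 and 0.387). Over the 3 tissues and 2 times, 54 tests of members gave no call by edgeR and 9 unadjusted p under 0.05. Beside that, the share of all genes called was 0 and 0.0418% in the UON at 3D and 2W, 0.0162% and 0.0485% in the MON, and 0.0081% and 0.113% in the retina. DESeq2 called 1, Il1b in the UON at 2W (log2 difference 3.90, adjusted p = 0.00507), whose values were 1.81 and 11.3 CPM after crush and 0.374 and 0.307 CPM in glaucoma. In that comparison DESeq2 called 1.28% of all genes.

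Il1rn in the MON differed between the pools of a group more than between groups in the glaucoma model. It had 17.9 and 0.403 CPM at 3D, 4.62 and 15.8 at 2W, and 8.68 and 0.508 at 6W. The deposited transcript tables show that the libraries with high values did not use the same start. The Il1rn gene (ENSMUSG00000026981, chr2:24336853-24351494, plus strand) has an upstream first exon, from which Il1rn-204 is transcribed (start 24336853, 159 codons), and a downstream first exon, from which Il1rn-201 (start 24345310, 178 codons) and Il1rn-202 (start 24345288, 162 codons) are transcribed. Counts given as upstream are those of Il1rn-204; a retained-intron transcript that starts in the same exon, Il1rn-203, had 42 counts over all libraries and is left among other transcripts. Il1rn-204 encodes an intracellular form of the antagonist, known from epithelia, and Il1rn-201 encodes the secreted form. The windows around both starts (RefSeq, GRCm38.p6, plus strand, chr2:24336610-24336909 and chr2:24345041-24345340) are printed because the 2 forms are told apart by their first exons. A further RefSeq window of the gene, chr2:24345121-24345420, is not printed. Capitals mark the 50 bases from the RefSeq start, which lies some bases from the transcript starts given above. The start of Il1rn-201 falls within the capitals.
Il1rn upstream start: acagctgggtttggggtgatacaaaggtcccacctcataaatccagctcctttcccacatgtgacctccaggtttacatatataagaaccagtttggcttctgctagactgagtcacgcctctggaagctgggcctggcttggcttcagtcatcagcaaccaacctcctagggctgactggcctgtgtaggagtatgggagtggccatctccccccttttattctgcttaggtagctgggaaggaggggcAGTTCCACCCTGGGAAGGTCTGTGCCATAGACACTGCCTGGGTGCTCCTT
Il1rn downstream start: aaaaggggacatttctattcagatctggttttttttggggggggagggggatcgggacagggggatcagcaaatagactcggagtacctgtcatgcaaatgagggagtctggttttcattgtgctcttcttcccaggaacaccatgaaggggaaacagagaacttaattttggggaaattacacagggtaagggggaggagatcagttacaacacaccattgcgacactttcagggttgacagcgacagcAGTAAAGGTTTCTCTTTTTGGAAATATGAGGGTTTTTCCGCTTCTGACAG

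Over the 12 MON libraries, 32.2% of the 2977 Il1rn counts went to Il1rn-204 of the upstream start, 23 went to other transcripts, and in the 12 UON libraries 26.4% of 765 went to Il1rn-204. In MON Glaucoma 3D, the high female pool had 0 counts of Il1rn-204, 839 downstream counts and 12 counts of other transcripts. In MON Glaucoma 2W, the high male pool had 642 upstream and 38 downstream counts (94.3% upstream), and the female pool had 0 and 106. In MON Glaucoma 6W, the female pool had 177 upstream and 183 downstream counts and 9 of other transcripts. The 2 pools in which upstream counts were highest, the male pool at 2W and the female pool at 6W, were the 2 MON libraries with surface epithelium sums of 1991 and 2447 CPM. Upstream counts also occurred without such sums: 83 in the male MON Crush 3D pool (0.558 CPM) and 25 in the male MON Glaucoma 3D pool (0.902 CPM). In the UON, the male Glaucoma 2W pool had a sum of 142 CPM and 0 upstream counts, and the male naïve pool had 111 CPM and 36 upstream counts. The part of these cells in the result was not tested. StringTie divides reads among transcripts by a model, so the split is an estimate.

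After crush, Il1rn counts came mostly from the downstream start. In the MON the female and male pools had 0 upstream and 143 and 119 downstream counts at 2W, and at 3D 0 and 83 upstream with 48 and 485 downstream counts. In the UON the naïve pools had 8 and 36 upstream counts and 0 downstream, the 3D pools 46 and 36 upstream and 0 downstream, and the 2W pools 0 upstream with 139 and 354 downstream. So within the UON the counts were assigned to the upstream start in both pools at 3D and to the downstream start in both at 2W. The naïve and 3D counts are few, and at such counts the pools of 1 group could be assigned wholly to different starts. The naïve MON had 28 downstream counts in the female and 12 upstream in the male pool. UON Glaucoma 2W had 24 upstream counts in the female and 20 downstream in the male pool. A change of start with time can therefore not be read from these counts, and no test was made on them.

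**Figure D5:**
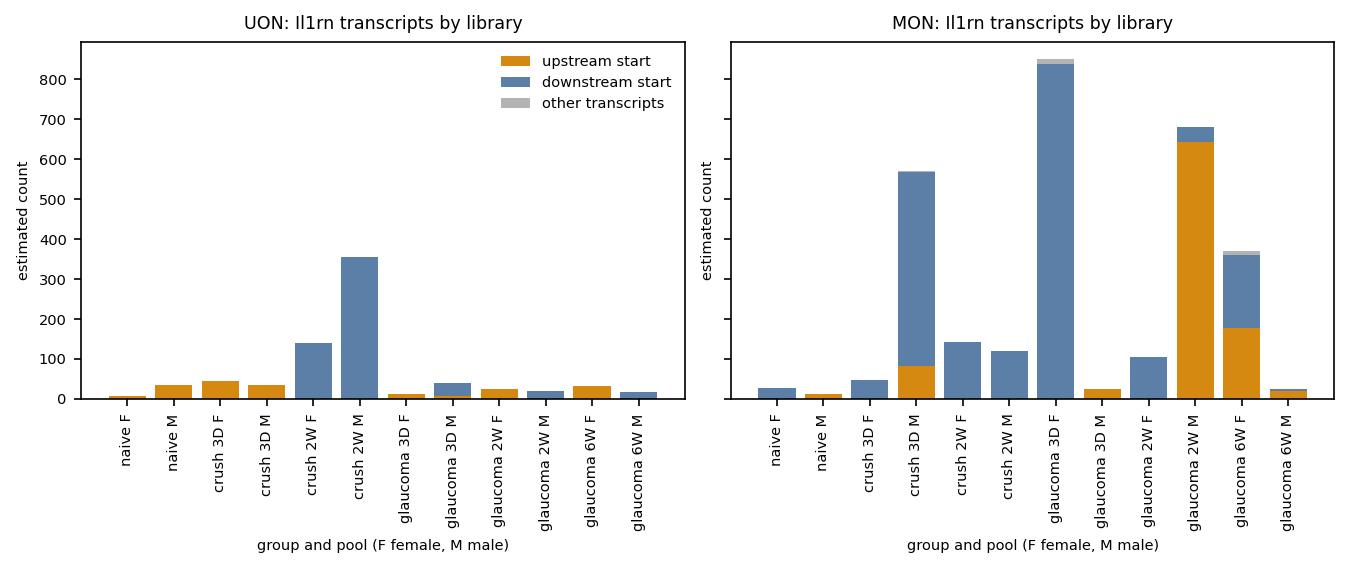
Estimated counts of Il1rn-204 (upstream start), of Il1rn-201 and Il1rn-202 (downstream start) and of other transcripts, Il1rn-203 among them, in the 12 UON and 12 MON libraries, as stacked bars from 0; each bar is 1 pool. The male MON Glaucoma 2W pool is made up mainly of upstream counts (642 of its total) and the female MON Glaucoma 3D pool of downstream counts (839).

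In the UON at Crush 3D, 1 of the 10 genes had both pools above both naïve pools (Il1rn) and 1 below them (Tlr4), beside 16.9% and 19.8% of all genes tested. None was called by edgeR or DESeq2, which called 0% and 0.56% of all genes, and none had an unadjusted p under 0.05. At 2W 7 of the 10 had both pools above both naïve pools, beside 19.5% of all genes tested, and the median log2 fold change was 1.49 beside -0.093 for all genes. None of them was called by edgeR (4 at an unadjusted p under 0.05; 0.0281% of all genes called), and DESeq2 called 3, Il1rn, Nlrp3 and Casp1, and 1.38% of all genes.

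Nlrp3 was the most even of these in the 2 UON pools. It had 0.877 and 0.471 CPM in the naïve UON and 4.64 and 5.40 at Crush 2W (log2 fold change 2.93 ± 0.92; edgeR, adjusted p = 0.491). Il1rn had 0.175 and 0.848 CPM in naïve pools and 2.89 and 6.62 at 2W (3.40 ± 0.98; edgeR, adjusted p = 0.489). Casp1 had 9.82 and 9.06 CPM in naïve pools and 19.0 and 81.7 at 2W, for a log2 difference of 2.17 ± 0.61 (adjusted p = 0.488 by edgeR) that was 1.06 without the male crush pool. The size of the Casp1 difference thus rested on 1 pool, although both crush pools lay above the naïve ones. Il1b, 1.21 and 0.565 CPM in naïve pools and 1.81 and 11.3 at 2W, had a log2 fold change of 2.50 that was 0.95 without that pool. Tlr2 had 16.9 and 16.7 CPM in naïve pools and 41.0 and 34.1 at 2W (1.17 ± 0.37; edgeR, adjusted p = 0.491). The male pool, the one with low myelin genes and the low agreement with its partner, held the highest Il1b, Il1rn, Tnf, Il18, Nlrp3, Casp1 and Tlr4 values of the 12 UON libraries, and its monocyte and macrophage sum was 4945 CPM against 1087 in the female pool and 298 and 336 in naïve pools. It also had the highest sums of pigment epithelium and melanocyte genes (58.5 CPM against 3.00 in the female pool) and of skeletal muscle genes (40.7 against 3.69). Red blood cell genes summed to 4735 and 3650 CPM in the female and male Crush 2W pools against 233 and 548 in naïve pools. The part of these cells in the result was not tested.

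In the UON of the glaucoma model, no member was called by edgeR or DESeq2 at 3D, 2W or 6W, and none had an unadjusted p under 0.05 by edgeR. Few or no genes of any kind were called there: 0% at each time by edgeR, and 0.317%, 0.189% and 0.0831% by DESeq2. Tlr2 had 27.0 and 25.4 CPM at 3D, 27.6 and 19.1 at 2W, and 12 and 24.8 at 6W, so its pools lay above the naïve 16.9 and 16.7 at 3D and 2W and on both sides of them at 6W. At 2W, Il18 (14.9 and 13.4 CPM), Il1b (0.374 and 0.307) and Myd88 (27.2 and 20.1) were below both naïve pools and Tlr2 and Casp1 (12.99 and 13.9) above them, beside 20.4% of all genes below and 15.3% above. Of the 10, Tlr2 alone was above at 3D and Tlr4 alone at 6W (31.5 and 36.8 CPM), where 16% and 17.9% of all genes were. Il1a in this region ranged from 0 in the male 2W pool to 5.19 CPM in the male 6W pool.

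Times within a model were compared in the same fits. Over 12 contrasts of a later with an earlier time, no member was called by edgeR (12 of 107 unadjusted p under 0.05). DESeq2 called 1, Casp1 in the UON at Crush 2W against 3D (log2 difference 2.08, adjusted p = 0.0229), which had 9.42 and 11.4 CPM at 3D. In that contrast DESeq2 called 0.949% of all genes. The share of all genes called by edgeR in these contrasts was 0.00468% for UON Crush, 0.075% for MON Crush, 0.0485% for Retina Crush, 0.00429%, 0.0129% and 0.00858% for Retina Glaucoma (2W against 3D, 6W against 3D, 6W against 2W), and 0 for UON and MON Glaucoma.

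Whether the response differed between MON and UON was tested as an interaction. This fit and that of MON with retina had a term for sex and none for the pool of mice. They treat the tissues of the same mice as independent libraries. For Tlr2 the crush response was larger in the MON by 1.77 ± 0.43 on the log2 scale at 3D (edgeR, adjusted p = 0.311) and by 1.75 at 2W (adjusted p = 0.187). DESeq2 called this difference at both times (adjusted p = 0.0402 and 0.0296), where it called 0.691% and 1.42% of all genes. For Il18 the crush response at 2W was lower in the MON than in the UON by a log2 difference of -1.49 (edgeR, adjusted p = 0.267), and Il18 had 24.9 and 40.7 CPM in the UON at that time. No member was called by edgeR in this interaction at any of the 5 model times (11 of 50 unadjusted p under 0.05; share of all genes called 0.012% at Crush 3D and 0 at the others), or in that of MON with retina (8 of 50; 0.882% and 0.622% at Crush 3D and 2W and 0 in glaucoma). DESeq2 called 0 in the latter.

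In the retina Il1a, Il1b, Il1rn, Tnf and Nlrp3 were near the limit of detection, whereas Il18 and Myd88 were well detected. Over the 12 retina libraries Il1a had a median of 8 counts (0 to 21), Il1b 6 (0 to 28) and Il1rn 4 (0 to 16). Tnf was at 0 in 10 and Nlrp3 in 8 of the 12 libraries. Counts this low leave all but large differences in these 5 genes undetectable at this depth. Tlr2 had 3 to 78 counts and Tlr4 0 to 72, whereas Il18 had 153 to 502 and Myd88 274 to 817.

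Myd88, the best measured of them in the retina, had 8.91 and 10.2 CPM in naïve pools, 11.7 and 10.9 at Crush 3D, 13.5 and 13.7 at Crush 2W, 10.9 and 13.8 at Glaucoma 3D, 16.6 and 10.05 at 2W, and 13.1 and 11.2 at 6W. Tlr2 had 0.0599 and 0.553 CPM in naïve pools, 0.551 and 0.510 at Crush 3D, 0.762 and 0.786 at Crush 2W, 1.24 and 1.38 at Glaucoma 3D, 1.38 and 0.327 at Glaucoma 2W, and 1.87 and 0.618 at Glaucoma 6W. The pools of Tlr2 at Crush 3D and Glaucoma 2W overlapped with naïve, and those of the other 3 groups lay above it. At Crush 3D and 2W, 2 and 4 of the 6 members tested lay above both naïve pools, beside 19.6% and 23.3% of all genes. At Glaucoma 3D, 2W and 6W, 5, 0 and 3 of 7 did, beside 18.2%, 22.1% and 21.6%. Il1b lay below them at Glaucoma 2W, beside 17.2% of all genes. No member was called in the retina at any time by edgeR or DESeq2, where edgeR called 0.0221% and 0.313% of all genes at Crush 3D and 2W and 0.00429%, 0 and 0.00858% at Glaucoma 3D, 2W and 6W, and 1 comparison, Il1b in Glaucoma 2W where both pools were at 0, had an unadjusted p under 0.05.

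The remaining genes of these pathways were described from 7 lists with 85 genes in all. In the MON, 15 of the 83 tested were called higher at Crush 3D and 14 at Crush 2W by edgeR, and 0 lower, with 37 and 45 at an unadjusted p under 0.05, beside 3.61% and 2.13% of all genes called higher. Of the other Toll-like receptors and co-receptors 5 of 14 rose at 3D and 4 at 2W, of the NF-κB targets 5 and 4 of 16, of the inflammasome partners 2 and 2 of 10, of the NF-κB subunits and inhibitors 2 and 2 of 12, of the TNF receptor list 1 and 1 of 8, of the adaptors and kinases 0 and 1 of 14, and of the IL-1 family 0 and 0 of 9 (3 and 5 at an unadjusted p under 0.05).

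Tlr1, which pairs with TLR2, rose from 1.42 and 0.883 CPM in the naïve MON to 6.13 and 12 at 3D and to 19.2 and 7.10 at 2W, log2 fold changes of 3.15 and 3.55. Tlr13, a sensor of bacterial ribosomal RNA, rose from 7.73 and 8.01 to 39.7 and 83.6 CPM at 3D (log2 fold change 3.05), and Cd180, a Toll-like protein of B cells and myeloid cells, from 1.16 and 4.12 to 14.1 and 17.5 CPM (2.82). At 2W the other called genes of this list with the highest folds were Tlr7, a sensor of single-stranded RNA (2.34 on the log2 scale), and Cd14, a co-receptor of TLR2 and TLR4 (2.29), and Ticam2, an adaptor of TLR4, rose by 2.16. Pycard, the adaptor that links NLRP3 to caspase-1, rose by log2 fold changes of 2.47 at 3D and 2.06 at 2W, and Gsdmd, the pore-forming substrate of caspase-1, by 2.36 and 2.00. By edgeR, the inflammasome partners Pycard and Gsdmd were thus called in the crushed MON, where Nlrp3 and Casp1 were not; DESeq2 also called Casp1 at 2W, and whether the genes differ from each other was not tested.

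Tnfrsf1b, the second TNF receptor, rose from 21.7 and 19.1 CPM to 83.2 and 148 at 3D and to 142 and 78.3 at 2W (log2 fold changes 2.60 and 2.52). Among NF-κB subunits and inhibitors, Nfkbiz, an inducible nuclear regulator, rose by 2.32 at 3D and 2.08 at 2W on the log2 scale, Rel by 1.93 at 3D and Nfkb2 by 1.80 at 2W. Among NF-κB targets, the monocyte chemokine Ccl2 rose from 0.764 and 1.59 CPM to 31.7 and 55.8 at 3D (log2 fold change 5.36), where Ccl4 rose by 3.62 and Ccl5 by 3.02. At 2W Ccl4 rose by 4.39, Ccl3 by 3.98 and the adhesion molecule Vcam1 by 3.32 on the log2 scale. The number of genes called higher over all genes fell when a naïve MON pool was left out, from 721 to 14 without the female and 148 without the male pool at 3D, and from 425 to 7 and 37 at 2W.

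In the MON of the glaucoma model 0 of the list genes were called by edgeR, with 23, 30 and 10 of 84 at an unadjusted p under 0.05 at 3D, 2W and 6W, and DESeq2 called 8 higher at 3D, 11 higher and 1 lower at 2W, and 1 lower at 6W. In the UON, 0 were called after crush (7 and 20 of 85 at an unadjusted p under 0.05; DESeq2 2 at 3D, and 7 higher and 2 lower at 2W). Between the naïve regions edgeR called 3 of 82 list genes, beside 9.63% of all genes, with 22 at an unadjusted p under 0.05, and DESeq2 called 8 higher and 2 lower of 85. Of the 3, Il33, an IL-1 family alarmin, was lower in the UON (127 and 114 CPM) than in the MON (737 and 464 CPM; log2 difference -2.32), and Lbp, the lipopolysaccharide-binding protein, and Vcam1 were higher in the UON by 1.64 and 1.74 on the log2 scale. Against the retina edgeR called 47 of 82 list genes higher and 1 lower in the UON, and 48 higher and 2 lower in the MON. Of all genes, 18.2% were called higher and 13.5% lower in the UON, and 16.7% and 10.9% in the MON.

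Patterns over the 24 nerve libraries were compared with those of 15028 genes by Pearson r of log2 CPM, as a description over libraries that share their regions and depths. Most like Tlr2 were Nckap1l (r = 0.93), Irf8 (0.93) and Pik3cd (0.92), genes of myeloid and other blood cells. Most like Il1a were Slamf8 (0.89), Ticam2 (0.86) and Plcl2 (0.84), and most like Il1rn were Cd300lb, Tgm1 and Pycard (0.81 each). Most like Il1b were Sat1 (0.87), Junb (0.84) and Surf2 (0.82). Those most like Il18 were Gabarapl2 (0.91), Mrfap1 (0.87) and Erg28 (0.85), those most like Tlr4 were Osbpl9 (0.91), Ctps2 (0.90) and Tbx3 (0.90), and those most like Myd88 were Sdcbp (0.84), Arpc5 (0.84) and Atp6v1c1 (0.82). Casp1 was most like Apex1 (0.86), Gm8894 (0.85) and Akr1b10 (0.84). The values were lowest for Nlrp3, with Cmtm8 (0.75), Mms19 (0.73) and Cgref1 (0.73), and for Tnf, with Impa2 (0.74), Gm13453 (0.73) and Casp8ap2 (0.67).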

How the data were processed

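RNA of 36 pools (3 tissues, naïve and 5 injury groups, 2 pools each) was sequenced by the authors as 2 × 150 bp reads, aligned with HISAT2 2.2.1 to GRCm38 and assembled with StringTie 1.3.0 on Gencode annotation. The deposited gene and transcript counts are estimated counts that StringTie's script derives from coverage, so that 1 read pair can give about 4 counts; they were whole numbers in the tables. The deposited FPKM values were used only for levels between genes, and in 13 of 36 tables FPKM slightly below 0 were set to 0. Counts were filtered with filterByExpr (minimum count 10, total 15), normalized with TMM and fitted with edgeR 4.0.16 (quasi-likelihood, R 4.3.3, limma 3.58.1) on the naïve and injured libraries of a tissue and model, with sex as a term. Unlike the study, which used DESeq2, edgeR gave the main test, and DESeq2 1.42.0 was an alternative. A call needed a Benjamini-Hochberg adjusted p under 0.05 over all genes tested and a log2 fold change beyond 1. The naïve libraries served both injury models, so the comparisons of a tissue share them. Each group has 2 pools of 2 mice, so a p-value against naïve rests on 2 or 3 residual degrees of freedom per gene and measures the spread between these pools. The sex term pairs the female and the male pools of the groups compared, as in the study's methods; in a group the 3 tissues came from the same mice. The members and gene lists were chosen with earlier results of these data known. The genes named besides the 10 members are up to 3 called genes of each list with the largest absolute log2 fold change in a comparison, list genes with the most calls, and the 3 genes most like each member. Levels are CPM, and the estimated precision of a low level is limited by its counts. Alternatives were RLE scaling, no filter, no sex term, counts divided by 4, all 12 libraries of a tissue in 1 fit, DESeq2 and leaving out each library. Sequences are from RefSeq tables of GRCm38.p6.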

Additional observations from a re-analysis of the deposited data

How the results depend on the processing

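The number of called members is the value that depends most on the processing. Except with DESeq2 and without the sex term, it is given here without the share of all genes called, so it cannot be told from a change in calls over all genes. With DESeq2 it was 3 in UON Crush 2W, 5 and 6 in MON Crush 3D and 2W, 2 and 3 in MON Glaucoma 3D and 2W, 1 for crush against glaucoma, 1 for later against earlier time (Casp1 in UON Crush) and 2 for the response of MON against UON. Without the filter on low counts it was 5 and 5 in MON Crush 3D and 2W, 1 in MON Glaucoma 2W and 1 between naïve UON and MON. Without the sex term, that is without the replicate block by which the pools are paired, it was 3 in MON Crush 3D (Il1rn, Tlr2 and Myd88), and the calls of all genes there were 1078 higher and 274 lower; the block changed no other call of a member count beyond 1.5 times. With all 12 libraries of a tissue in 1 fit it was 2 and 2 in MON Crush 3D and 2W, and with counts divided by 4 it was 1 between naïve UON and MON (Tlr4). With 1 library left out it ranged from 0 to 5 in MON Crush 3D, from 0 to 4 in MON Crush 2W and from 0 to 1 between naïve UON and MON. Among the values recomputed for this summary, directions reversed for uncalled members with 1 library left out: Tnf in UON Crush 2W (-0.64 and -0.39), MON Glaucoma 3D (-1.64) and 2W (-6.23), Il1rn in MON Glaucoma 3D (-0.45) and 6W (-0.033), and Nlrp3 in MON Glaucoma 6W (1.0) and between naïve UON and MON (0.099 and 0.078), all as log2 fold changes. The summary does not hold every member. Other uncalled members also had opposite signs without the naïve female and without the naïve male pool. These were Nlrp3 in MON Crush 3D (-1.29 and 0.85), MON Crush 2W (-0.20 and 1.97) and MON Glaucoma 2W (-2.10 and 1.35). In UON Crush 2W they were Tlr4 (0.22 and -0.31) and Myd88 (0.54 and -0.21). Under the other alternatives no direction in the summary reversed. The causes were not tested. Of the values recomputed 206 kept their direction and side with 1 library left out (9 came past the threshold, 8 no longer passed it), and under the other alternatives 279 kept them and 36 came past the threshold.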
